A study of Mus musculus with 4 samples.

Results

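Mybpc3, the gene named by both mouse models of the series, was examined together with 8 related thick filament genes: its paralogs Mybpc1, Mybpc2 and Mybphl, the myosin light chain genes Myl2, Myl3, Myl4 and Myl7, and the light chain kinase gene Mylk3. These 9 genes were chosen by name, through the RefSeq transcripts of the deposited count files, and occupied 14 of 41449 rows (9 of 24847 gene symbols). Of the 9 genes, 4 held a count (Mybpc3, Myl2, Mybpc2 and Mylk3) and 5 were at 0 in every library.

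The data are strand-specific poly(A) RNA sequencing of whole mouse hearts in 4 libraries, 1 per group, each a pool of 3 hearts from mice 12 weeks old. The library NTG came from nontransgenic mice, and dC10mut from cMyBP-CΔC10mut mice, a hypertrophic cardiomyopathy (HCM) model transgenic for a 25-bp variant of MYBPC3; both carry the strain label C57BL/6. Mice of the dilated cardiomyopathy (DCM) model cMyBP-C(t/t) gave the library tt, and their control group gave the library control; the strain label of this pair is FvB/N. The promoter and species of the transgene, the number of founder lines, the nature of the t allele and the genotype of the controls are not stated in the sources used here. Library totals ran from 170543 to 187365 counts, and 1 library per group leaves every difference below without a replicate check, so no p-value is given. Each 95% interval covers the error of counting alone, and reads duplicated by PCR make even that error too small.

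Cardiac myosin binding protein C lies in the C-zone of the thick filament, where its C-terminal domains anchor it to myosin and titin and its N-terminal domains reach toward actin; variants of its gene are among the most frequent genetic causes of hypertrophic cardiomyopathy. Each myosin head carries an essential and a regulatory light chain. In the ventricle these are the products of Myl3 and Myl2, and in the atrium those of Myl4 and Myl7; Mylk3 encodes the cardiac kinase that phosphorylates the Myl2 protein. Mybpc1 and Mybpc2 encode the slow and fast skeletal muscle forms of the binding protein, and Mybphl a short relative found in atria and the conduction system.

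The counted Mybpc3 transcript runs on the plus strand of chromosome 2 (91118144 to 91136516, GRCm38) over 35 exons and 4163 bp. The model label names C10, the last domain of the protein. Exon 33, the last exon to encode more than a few residues, lies at chr2:91135736-91135922 and is wholly coding (187 bp, with 8 coding bases left in the next exon); its reference sequence from GENCODE M21 is printed to show the end of the gene that the label refers to. No deposited value reports on this exon alone, since the files hold 1 count per transcript.
Mybpc3 exon 33: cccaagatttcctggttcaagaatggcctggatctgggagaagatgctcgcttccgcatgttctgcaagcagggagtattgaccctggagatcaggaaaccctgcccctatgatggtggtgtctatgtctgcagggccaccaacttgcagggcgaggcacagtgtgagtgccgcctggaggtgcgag

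The Myl2 transcript is short (662 bp; gene at chromosome 5, 122100951 to 122113472, plus strand). Its first 60 coding bases, in exons 1 and 2 between chr5:122101027-122101805, are printed because the light chain is phosphorylated at a serine near its start, the reaction that Mylk3 serves. Capitals mark the 3 serine codons that a script found there, AGC, TCC and TCC.
Myl2 coding start: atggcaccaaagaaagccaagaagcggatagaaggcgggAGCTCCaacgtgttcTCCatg

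RefSeq promoter windows of 250 bases (GRCm38.p6) were matched for all 9 genes, 11 windows in all, and searched on both strands. The window of Mybpc3 (chr2:91117894-91118143) is printed because it was the 1 among the members that held a match to the MEF2 motif, the site of a muscle transcription factor family. That match begins at base -90 from the start, and a GATAA match begins at -60; both are in capitals.
Mybpc3 promoter: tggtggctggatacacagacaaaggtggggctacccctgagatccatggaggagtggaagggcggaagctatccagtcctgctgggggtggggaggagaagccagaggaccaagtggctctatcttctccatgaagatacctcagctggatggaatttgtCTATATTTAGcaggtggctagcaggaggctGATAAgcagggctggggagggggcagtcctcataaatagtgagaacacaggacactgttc

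Of all 32851 windows of this length, 2.92% held a MEF2 match and 22.6% a GATAA match. GATAA was found for 6 of the 9 members, CATTCC for 4 (12.6% of all windows), CANNTG for 7 (66.2%) and the CArG box for Myl3 and Myl7 (1.47%). A member was counted where any of its windows matched, with 11 windows for the 9 members. The shares are of single windows, so the 2 measures are not alike. The windows available for Myl2 begin upstream of the counted transcript, so they do not describe its own start.

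What a row counts has to be settled before its values are read. The labels name a library kit that keeps the strand, but the strand setting used in counting was not given in the sources used here. At several loci where 2 genes overlap on opposite strands, the row of a widely expressed enzyme gene held far fewer counts than the row facing it. Pdha1, of pyruvate dehydrogenase, held between 121 and 228 counts, while Map3k15 opposite held between 11101 and 14012. Ppib, which encodes cyclophilin B, held 11 to 16 counts against 941 to 1420 for Snx22. Ppp1ca, a protein phosphatase catalytic subunit gene, held 22 to 41 counts against 779 to 913 for Rad9a. Each of these genes has 1 row, and these loci were chosen after their values were seen. The locus of Cryab, a small heat shock protein gene, went the other way. Cryab held 861, 1038, 851 and 739 counts in NTG, dC10mut, control and tt. Hspb2, which faces it, held 0, 6, 1 and 1. Cryab has 4 rows and Hspb2 has 2. Rows with an exon opposite another gene made up 20.9% of the rows placed on the annotation and held 66.9% to 70.4% of the counts. Whether a row holds reads of its own strand or of the other strand was not tested. Counting with the opposite strand setting would give the pattern of Pdha1, Ppib and Ppp1ca. Rows that face no exon would then hold residual reads only. Among the members these are the rows of Mybpc3, Myl2, Mylk3 and Myl7, the placed row of Myl3 and some rows of Myl4. Every value below is therefore the count in the row named for a gene, which may not be a measure of that gene's mRNA. Mybpc3 and Myl7 have no gene on the other strand in the annotation. The counted Myl2 transcript has no opposite-strand exon, and Ccdc63, which overlaps the Myl2 gene further downstream, held 1 count in NTG and 0 in the other libraries.

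Taking the libraries in the order NTG, dC10mut, control and tt, Mybpc3 held 344, 368, 266 and 412 counts. Scaled to a common library size with TMM factors, these are 2146, 1966, 1462 and 2138 CPM, the usual depth-scaled count, with intervals of 1925 to 2385, 1770 to 2177, 1291 to 1648 and 1937 to 2355. NTG, dC10mut and tt thus lay together within their counting error, and the control library lay below all of them. The highest and lowest libraries were 1.47-fold apart. By counts Mybpc3 ranked 75th in both NTG and dC10mut, 101st in control and 65th in tt, among between 6704 and 6971 genes with a count.

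In the HCM pair, the log2 ratio of Mybpc3 (dC10mut over NTG) was -0.13 (-0.34 to 0.09), so no difference was detectable at this depth with the TMM scaling. With TMM over genes without an opposite-strand exon the ratio was -0.24 (-0.46 to -0.02), and scaled to cardiomyocyte marker counts it was -0.42 (-0.64 to -0.21), so that both of these intervals excluded equality. The row cannot separate the transgene from the endogenous gene. In the DCM pair, Mybpc3 was 1.46-fold higher in tt than in control (log2 ratio 0.55, 0.32 to 0.78). Between the control libraries it was 1.47-fold lower in control than in NTG (log2 ratio -0.55, -0.79 to -0.32). The last 2 comparisons share the control library, and its low value enters both. The difference between the 2 models' ratios, DCM minus HCM, was 0.67 (0.37 to 0.98).

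These values were set beside those of all genes. A gene was counted as past the fold where it differed at least 2-fold with an interval that excluded equality. By that rule 4.32% of 8009 genes passed in the HCM pair, 4.28% of 8226 in the DCM pair and 3.1% of 8126 between the control libraries, and 0 of the 4 members with a count passed in any of the 3. Split into higher and lower genes, these shares were 1.8% and 2.52% for HCM, 2.7% and 1.58% for DCM, and 1.4% and 1.7% for the control libraries. By the interval alone, 1 of the 4 members passed in the HCM pair (Myl2), and 2 in the DCM pair and 2 between the control libraries (Mybpc3 and Myl2 in each). The interval rule took 7.53%, 7.91% and 5.76% of all genes in these comparisons. Among genes with at least 100 counts, which are better counted, it took 50.2%, 52.0% and 35.5%, so a Mybpc3 or Myl2 interval that excludes equality is no rarity at their depth. Of the 529 such genes in the DCM pair, 85.8% had a lower ratio than Mybpc3. In the HCM pair it stood near the middle, with 48.2% of 508 genes below it. Between the control libraries, 11.2% of 498 such genes lay below it.

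**Figure D1:**
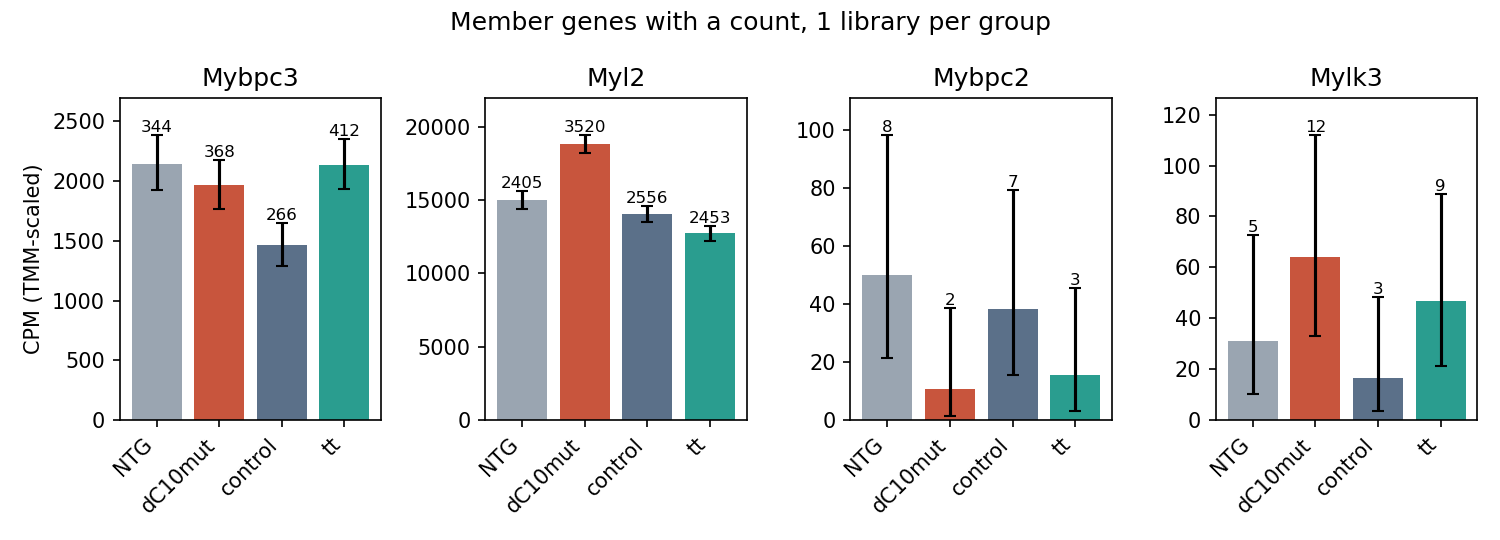
TMM-scaled CPM of the 4 member genes with a count, 1 bar per library with the exact 95% Poisson interval and the raw count above it; each panel has its own axis from 0. Mybpc3 is lowest in control (266 counts) and Myl2 highest in dC10mut (3520 counts), while Mybpc2 and Mylk3 rest on at most 12 counts.

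Myl2, the ventricular regulatory light chain gene, was the most abundant member. In the same order of libraries it held 2405, 3520, 2556 and 2453 counts, or 15002, 18804, 14046 and 12731 CPM. It ranked 4th or 5th by count in every library. The dC10mut library stood above the other libraries beyond counting error (18188 to 19436 CPM), and tt was the lowest (12233 to 13245 CPM).

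In the HCM pair, Myl2 was 1.25-fold higher in dC10mut (log2 ratio 0.33, 0.25 to 0.40), a larger ratio than that of 79.7% of the 508 genes with at least 100 counts. In the DCM pair it was 1.10-fold lower in tt (log2 ratio -0.14, -0.22 to -0.06), and between the control libraries 1.07-fold lower in control (-0.09, -0.18 to -0.01). The median log2 ratio of genes with at least 100 counts was -0.11 for HCM, -0.12 for DCM and -0.09 between the control libraries, so in the last 2 Myl2 sat at the middle of such genes. The difference between the pairs' Myl2 ratios was -0.47 (-0.58 to -0.36). The direction of Myl2 depended on the scaling. Scaled to the summed counts of 12 cardiomyocyte markers, none of which is a member, its ratio was 0.029 (-0.046 to 0.10) for HCM and 0.085 (0.0044 to 0.17) for DCM. This scaling shifted every gene's log2 ratio by -0.30 in the HCM pair, 0.23 in the DCM pair and -0.11 between the control libraries. Most of the summed counts came from Actc1, Tnni3 and Tnnc1, with 906, 783 and 357 of 2614 in NTG. Their transcripts are short (1473, 912 and 721 bp), and their HCM log2 ratios were 0.41, 0.24 and 0.45. Their DCM log2 ratios were -0.07, -0.32 and -0.65. The part of transcript length in this scaling was not tested. With library totals, which shifted the last by 0.13, the Myl2 ratio between the control libraries was 0.037.

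**Figure D2:**
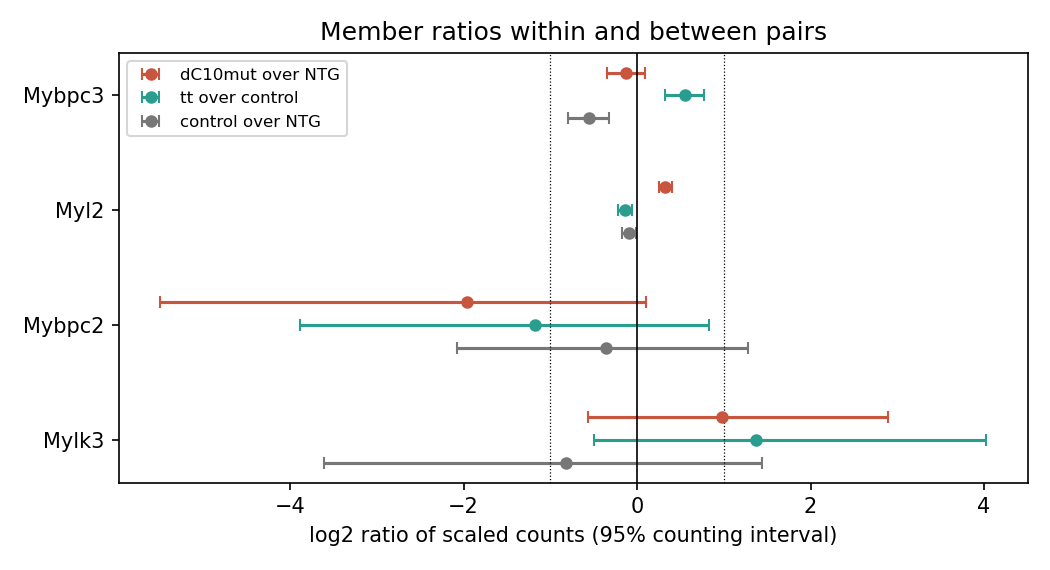
Log2 ratios of scaled counts for the 4 member genes with a count in 3 comparisons (points) with exact 95% counting intervals (bars); dotted lines mark 2-fold. Mybpc3 and Myl2 lie inside 2-fold throughout, and the intervals of Mybpc2 and Mylk3 cross equality in every comparison.

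Setting Myl2 against Mybpc3 inside each library removes the scaling. NTG had 6.99 Myl2 counts per Mybpc3 count (6.24 to 7.85), dC10mut 9.57 (8.59 to 10.7), control 9.61 (8.47 to 10.9) and tt 5.95 (5.36 to 6.62). The ratio was 1.37-fold higher in dC10mut than in NTG (log2 change 0.45, 0.23 to 0.68) and 1.61-fold lower in tt than in control (log2 change -0.69, -0.93 to -0.45). The models thus went opposite ways from their own references. Control was also 1.37-fold above NTG (log2 change 0.46, 0.21 to 0.70), a size near that of the HCM pair and below that of the DCM pair. Per kb of transcript, Myl2 was counted 44.0, 60.2, 60.4 and 37.4 times as often as Mybpc3 in NTG, dC10mut, control and tt.

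**Figure D3:**
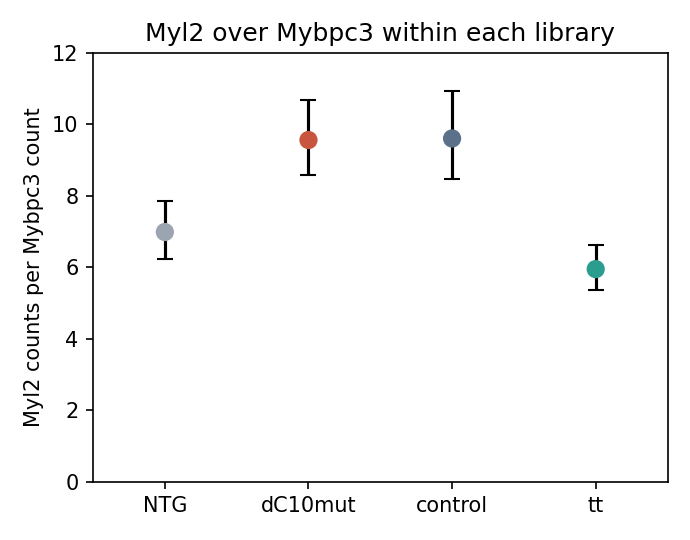
Myl2 counts per Mybpc3 count within each library (points) with exact 95% binomial counting intervals (bars), on an axis from 0. NTG (6.99) and tt (5.95) sit below dC10mut (9.57) and control (9.61), whose intervals do not reach them.

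The 2 genes differ in length, and length moved with the ratios. Among genes of 100 or more counts whose exons face no other gene, the HCM median log2 ratio was 0.45 for the 29 transcripts up to 1000 bp, 0.19 for 42 between 1000 and 2000 bp, 0.04 for 54 between 2000 and 4000 bp, and -0.13 for 21 longer ones. In the DCM pair the order was reversed, with medians of -0.36 (28 genes), -0.10 (42), 0.07 (59) and 0.16 (27). These length classes include Myl2 and Mybpc3, and the HCM median of the 21 longest transcripts is the ratio of Mybpc3 itself. The comparison with genes of like length that follows leaves out the gene being measured. Measured against genes within 1.5-fold of its own length, Myl2 had a ratio of -0.071 for HCM (22 genes) and 0.26 for DCM (22 genes), each opposite in sign to the value above. The HCM interval, -0.15 to 0.0044, included equality, and the DCM interval was 0.18 to 0.34. These intervals hold the counting error of Myl2 alone and leave out the spread of the 22 genes. The lower and upper quartiles of those genes were 0.19 and 0.53 for HCM, and -0.66 and -0.11 for DCM. The uncentred Myl2 ratios, 0.33 and -0.14, lay between these quartiles in both pairs. Mybpc3 measured in the same way kept its signs, at -0.16 for HCM (38 genes) and 0.48 for DCM (45 genes). Its uncentred HCM ratio, -0.13, lay between the quartiles of those genes (-0.29 and 0.36). Its uncentred DCM ratio, 0.55, lay above the upper quartile (0.38). The part of RNA quality in these length trends was not tested.

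Most other muscle genes with enough counts followed the same division. Sarcomere and cardiomyocyte list genes with at least 50 counts in every library described here numbered 11, Mybpc3 and Myl2 included. The 6 with transcripts up to 2000 bp all had HCM ratios above 0, at most 0.45, and 5 of them had DCM ratios below 0. Of the 5 longer ones, 4 had HCM ratios below 0 and 4 had DCM ratios above 0. These numbers count Myl2 among the shorter genes and Mybpc3 among the longer. Some ratios lay almost at 0, such as Lmod2 for HCM (0.00095) and Tmod1 for DCM (0.0064). Lmod2 (0.21 for DCM) and Ckm (0.11 for HCM and -0.17 for DCM) were the exceptions. Tnnc1, which encodes cardiac troponin C, held 357, 568, 613 and 413 counts in NTG, dC10mut, control and tt. Myom2, which encodes an M-band protein, held 165, 134, 88 and 217. Tnnc1 was thus lowest and Myom2 highest in NTG and tt, the libraries with the fewest Myl2 counts per Mybpc3 count.

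**Figure D4:**
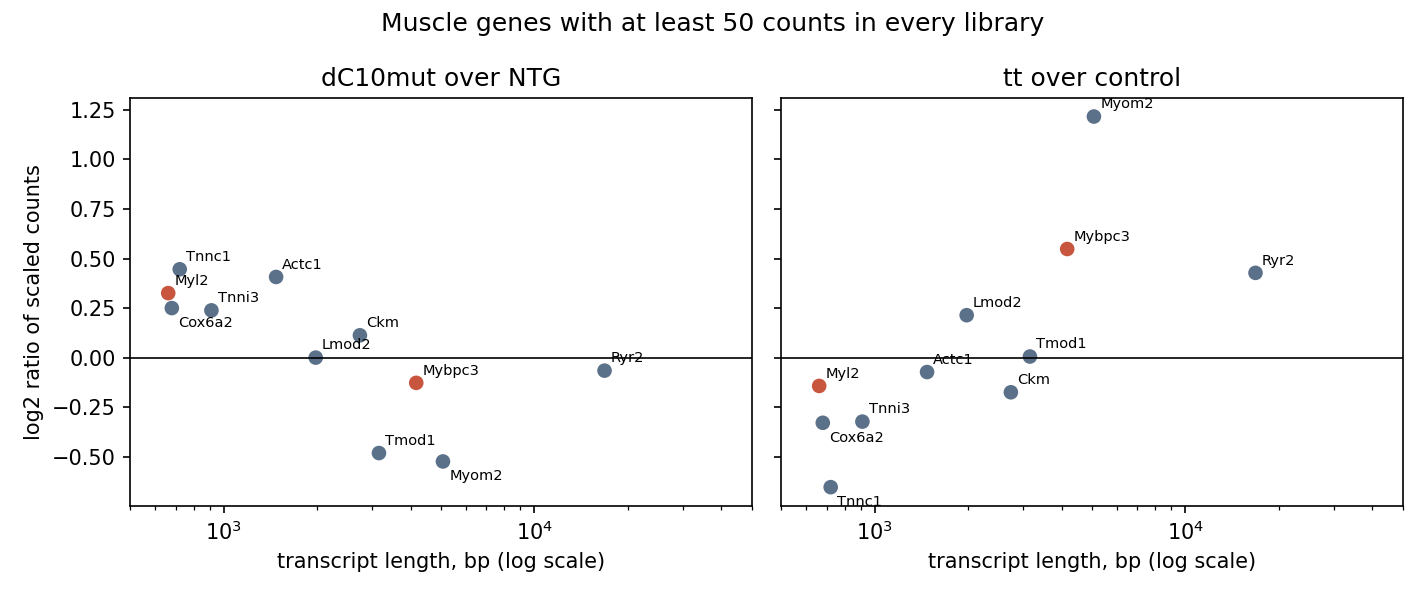
Log2 ratio of scaled counts (vertical) against transcript length in bp (horizontal, log scale) for 11 muscle genes with at least 50 counts in every library, in the HCM pair (left) and the DCM pair (right); Mybpc3 and Myl2 are red. Most short transcripts, such as Myl2 and Tnnc1, lie above 0 on the left and below 0 on the right. Most long ones, such as Mybpc3 and Myom2, lie the other way round. Exceptions are Lmod2 (1976 bp), at 0.00095 on the left and 0.21 on the right, and Ckm (2742 bp), at 0.11 and -0.17.

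Mylk3, the cardiac light chain kinase gene (chromosome 8, 85324303 to 85386345, minus strand), held 5, 12, 3 and 9 counts in NTG, dC10mut, control and tt, all in 1 of its 2 rows. Both model libraries were above their references, but the intervals crossed equality (log2 ratio 0.98, -0.57 to 2.90, and 1.37, -0.50 to 4.02). No difference was detectable at this depth. The row with counts has 780 exonic bases of its own, and the row without counts has 120.

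Mybpc2, the fast skeletal form (chromosome 7, 44501699 to 44524656, minus strand), held 8, 2, 7 and 3 counts in NTG, dC10mut, control and tt. Both models were below their references, again with intervals that crossed equality (log2 ratio -1.96, -5.50 to 0.10, and -1.17, -3.89 to 0.83). Its exons face those of Gm44646 on the other strand, so reads of the pair could be mixed. Per kb of transcript, the mean level over the 4 libraries was 22879 CPM for Myl2, 463 for Mybpc3, 10.7 for Mylk3 and 7.94 for Mybpc2. The order Myl2, Mybpc3 and then the other pair held in each library, and the order of Mylk3 and Mybpc2 varied. Mylk3 exceeded Mybpc2 per length in dC10mut (12 against 2 counts; log2 ratio 2.29, 0.38 to 5.75), while the interval crossed equality in NTG, control and tt.

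Myl3, Myl4, Myl7, Mybphl and Mybpc1 were listed at 0 in all 4 libraries. A count of 0 allows up to 3 counts, or between 15.6 and 18.7 CPM depending on the library; the upper end of the Poisson interval used for the other levels lies between 19.1 and 23.0 CPM. Of these genes 3 have several rows. The 3 rows of Myl4 (chromosome 11, 104550663 to 104595753) have 119, 140 and 183 exonic bases of their own, and the 2 rows of Mybpc1 (chromosome 10, 88518279 to 88605152) have 59 and 229. Myl3 (chromosome 9, 110741861 to 110769798) has 2 rows, of which 1 could be placed on the annotation, so the bases they share were not computed. Myl3 encodes the essential light chain of ventricular myosin, so its RNA belongs to the most abundant of a ventricle, and a 0 there describes the row and not the heart.

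Across the whole table, genes with 1 row had a count in 45.7% of 16947 cases, and genes with more rows in 19.8% of 7900. Among rows of such multi-row genes, those with no base of their own held a count in 2.05% of 5618 cases, those with 1 to 100 own bases in 3.44%, those with 101 to 250 in 11.8% and those with over 500 in 27.5%. Myl7 (chromosome 11, 5896637 to 5898782) and Mybphl (chromosome 3, 108364911 to 108380057) have 1 row each, as Mybpc3 and Myl2 do. Most genes and rows in each of these classes were at 0, and the part of shared rows in the zeros of the members was not tested. Gm12522, opposite Mybphl, held 0, 1, 1 and 1 counts.

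Marker lists give the setting of these zeros. Of 9 atrial markers other than the members, 3 held a count and 6 were at 0, among them Sln and Bmp10, each with known atrial expression. The summed atrial counts were 10, 24, 61 and 16 in NTG, dC10mut, control and tt, nearly all from Nppa, the atrial natriuretic peptide gene. Of 12 cardiomyocyte markers, 11 held a count, with sums of 16306, 20033, 17552 and 15000 CPM in NTG, dC10mut, control and tt. Tnnt2 was at 0, and Myh6 held 1 count in tt and 0 elsewhere, though both mark cardiomyocytes; each has more than 1 row. The skeletal muscle list holds Mybpc1 and Mybpc2; without them, 8 of 13 were at 0 and the sums were 131, 58.8, 203 and 93.4 CPM. These sums were lower in both models than in their references, but they rest on 21, 11, 37 and 18 counts in NTG, dC10mut, control and tt. Most were from Casq1 (10, 5, 28 and 15) and Atp2a1 (8, 6, 7 and 3). The part of skeletal muscle RNA in the Mybpc2 counts was not tested. Markers of other cell types differed too, in the DCM pair with sums lower in tt than in control: endothelial 1451 and 716 CPM, fibroblast 489 and 296 CPM, and macrophage 253 and 93.4 CPM. In the HCM pair the macrophage sum was 112 CPM in NTG and 256 CPM in dC10mut. Single genes weighed heavily in 2 of these lists. Fabp4 held 203 of 264 endothelial counts in control and 102 of 138 in tt. The macrophage sums were 18, 48, 46 and 18 counts in NTG, dC10mut, control and tt, of which Lyz2 held 6, 28, 28 and 5. The part of these markers in the Mybpc3 and Myl2 ratios was not tested. In bulk tissue, fewer cells of a type and less RNA per cell cannot be told apart.

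Xist, the RNA of the inactive X chromosome, held 0 counts in NTG and in control, 8 in dC10mut and 14 in tt. Tsix, which faces it, held 0, 147, 0 and 159 in NTG, dC10mut, control and tt. The sex of the pooled hearts was not given in the sources used here, so for every member, and in both pairs, genotype and sex cannot be told apart.

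The partners of these genes were read from lists, with values from the same comparisons. The thick filament and M-band list had 6 of its 9 genes measured in the HCM pair, with 0 past the fold upward and 2 downward: Myh7, the beta myosin heavy chain gene (27 and 11 counts), and Myh7b (70 and 36). Both have an opposite-strand gene, Mhrt and Trpc4ap. The Mhrt row went the other way from the Myh7 row, with 1778 counts in NTG and 6620 in dC10mut. Which of these rows holds the reads of Myh7 mRNA was not tested. The list median was -0.85, beside -0.11 over all genes. In the DCM pair 5 were measured and 1 was past the fold, Myom2, which held 88 and 217 counts (log2 ratio 1.22, 0.86 to 1.59). The median was 0.54 beside -0.05. Over the 4 genes with at least 10 counts in the pair it was 0.23 beside -0.06, with 2 ratios above 0 and 2 below. Myom2 was also the 1 of the list past the fold between the control libraries, at 165 counts in NTG and 88 in control, so its control value was low like that of Mybpc3. In the thin filament list 0 of 5 measured genes passed in the HCM pair (median 0.24) and 0 of 6 in the DCM pair (median -0.03).

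The other myosin light chain genes were scarce, with between 10 and 17 counts in all per library. Of them 0 of 5 measured passed in the HCM pair (median -1.04, from few counts). In the DCM pair 1 of 4 passed (median -0.52), Myl12b, a regulatory light chain of nonmuscle myosin, with 12 and 3 counts. Among kinases and phosphatases that act on the light chains or on the binding protein, 0 of 13 measured passed in the HCM pair (median 0.16) and 1 of 13 in the DCM pair (median 0.34). That gene was Ppp1r12b, which encodes a targeting subunit of myosin phosphatase enriched in striated muscle, with 3 control counts and 18 tt counts (log2 ratio 2.33, 0.73 to 4.91). Gm28892 lies opposite it.

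Genes of sarcomere protein turnover, such as the ubiquitin ligase gene Trim63 (25, 26, 44 and 47 counts), had 0 of 9 past the fold in the HCM pair (median 0.06) and 0 of 8 in the DCM pair (median 0.11). Among cardiac transcription factors and cofactors, 0 of 9 passed in the HCM pair (median -0.43), and 2 of 8 in the DCM pair (median 0.75). Srf, serum response factor, was higher in tt (2 and 14 counts). Ankrd1, a muscle ankyrin repeat cofactor, was 2.01-fold lower in tt (609 and 321 counts), with a control value above that of NTG (227 counts).

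The genes most like Mybpc3 over the 4 libraries were found among 509 nonmember genes with at least 200 counts in all. By the root mean square difference of centred log2 scaled counts, they were Nrg4 (0.03), 2610203C22Rik (0.05) and Dnajc19 (0.05), where the median gene was at 0.34. Library by library in the same order, the counts were 81, 91, 66 and 99 for Nrg4, 148, 154, 108 and 162 for 2610203C22Rik, and 281, 326, 231 and 370 for Dnajc19. Each of these 3 has an opposite-strand exon, of Fbxo22, Adhfe1 and Fxr1. The genes most like Myl2 were Twnk (493, 688, 481 and 494 counts), Cebpz (348, 468, 336 and 338) and Eef1a1 (55, 92, 62 and 61), at 0.05, 0.05 and 0.07 beside a median of 0.33. Twnk and Cebpz also have an opposite-strand exon, of Mrpl43 and Cebpzos. How close the nearest gene lies to other patterns was not tested.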

How the data were processed

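The submitters' processing notes name STAR, HTSeq and mm10, without versions; how reads were assigned and with which strand setting is not given in the sources used here. Unnormalized counts were deposited, 1 whole number for each RefSeq transcript, with 1 pool of 3 hearts per library and totals of 170543 (NTG), 187365 (dC10mut), 176633 (control) and 186420 (tt); 1 count equals between 5.19 and 6.24 CPM.

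From these counts, 41252 of 41449 rows were matched to symbols by RefSeq accession (table of GRCm38.p6) and summed per symbol. Lengths, positions and opposite-strand exons came from GENCODE M21 (GRCm38), which placed 35347 rows, with bedtools 2.31.1. Libraries were scaled with TMM factors over all libraries (edgeR 4.0.16 in R 4.3.3: 0.940, 0.999, 1.03 and 1.03). A prior count of 0.5 entered each log2 ratio, and an exact conditional binomial (Clopper-Pearson) calculation gave its 95% interval (SciPy 1.17.1); levels have exact Poisson intervals, and the difference between pairs and the change of the Myl2 to Mybpc3 ratio have normal approximations. A gene past the fold differed at least 2-fold, had an interval that excluded equality and reached 1 CPM. The rule was tested on simulated data. Alternatives were library totals, DESeq2 1.42.0 size factors, cardiomyocyte marker counts, TMM over genes without an opposite-strand exon, a prior count of 2, single transcripts and added opposite-strand rows.

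Named genes were all members, up to 3 per list past the fold with at least 10 counts, the 3 genes most like Mybpc3 and like Myl2, and strand partners; others were named after their values were seen, as were the comparison by length and the list of 11 muscle genes. Some genes are not reported here, and the thick filament and muscle gene lists are given without them. The members and lists were chosen with earlier results of these data known.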

Additional observations from a re-analysis of the deposited data

Results flagged for a closer look

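With 1 library per group, the ratios of Mybpc3 and of Myl2 pointed opposite ways in the 2 pairs, and this difference was not tested against replicates. For Mybpc3 the DCM minus HCM log2 ratio was 0.67 (counting interval 0.37 to 0.98), from a HCM ratio of -0.13 and a DCM ratio of 0.55. The HCM interval, -0.34 to 0.09, included equality, so that ratio has no clear direction. The reference of the DCM ratio was the control library, where Mybpc3 was 1.47-fold lower than in NTG. For Myl2 it was -0.47 (-0.58 to -0.36), from 0.33 and -0.14. The Myl2 difference turned to 0.33 when each pair was measured against genes of like length, and that of Mybpc3 remained above 0 at 0.64. Neither value takes in the spread of the genes of like length.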

How the results depend on the processing

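For Mybpc3 and Myl2, 60 values were recomputed under the alternatives for their ratios and differences: 46 stayed inside the counting interval, 8 moved outside it and 6 changed sign. Scaling by cardiomyocyte marker counts gave Mybpc3 -0.42 in the HCM pair and 1.20 for the difference between pairs. It gave Myl2 0.029 in the HCM pair, 0.085 in the DCM pair, -0.20 between the control libraries and 0.056 for the difference between pairs. This scaling uses other genes of the same muscle cells, mostly the short transcripts of Actc1, Tnni3 and Tnnc1. Library totals gave Myl2 0.41 in the HCM pair and 0.037 between the control libraries, where they also put 84 genes past the fold downward in place of 138. TMM over genes without an opposite-strand exon gave Myl2 0.21 in the HCM pair and -0.18 between the control libraries. Centring on genes of like length, an alternative chosen after seeing the data, gave Myl2 -0.071 in the HCM pair, 0.26 in the DCM pair, -0.31 between the control libraries and 0.33 for the difference; the cause was not tested. Under every alternative run, Mybpc3 stayed higher in tt than in control and lower in control than in NTG. The counts of list genes past the fold did not change by over 1.5 times with library totals or with a minimum of 10 counts. Adding opposite-strand rows was run for Myl2 alone. With 1 library per group, none could be left out. No paired analysis was possible because each group has 1 library and the labels give no replicate numbers. Depth limits Mybpc2 and Mylk3, which held at most 12 counts per library.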
